A study of Mus musculus with 20 samples.

Results

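Macrophages that received the extracellular vesicle (EV) fraction of airway fluid from RNY1-null mice were compared with macrophages that received phosphate-buffered saline (PBS). The genes described had to reach a mean of 3 CPM, the count of a gene scaled to a common library total, over the 8 libraries of these groups, which held for 10733 of the 78409 genes listed and of the 34373 with a count in the series. Fancm lay just inside that limit at 3.0006 CPM and Uros just outside it at 2.99846 CPM. Expression was measured by sequencing the 3′ ends of polyadenylated RNA, with 5 groups of 4 libraries and 20 libraries in all. Every library came from wild-type bone marrow-derived macrophages (BMDMs) of female C57BL/6J mice, grown with L929 fibroblast-conditioned medium, used on day 7 of culture, washed and placed in serum-free Opti-MEM, and all carry the same batch label. The cells of the first group (RNY1-/- EVFx) were given the EV-enriched size exclusion fraction of bronchoalveolar lavage fluid from RNY1-/- mice whose airways had been inflamed with ovalbumin (OVA). The control group was given PBS. The RNY1+/+ EVFx group received the matching fraction from OVA-challenged RNY1+/+ mice at the same dose of 35000000 particles per µL, and the RNY1-/- ProteinFx group received the protein-enriched fraction of RNY1-/- fluid, which was dosed by protein mass at 0.75 µg per µL. The genotype is therefore that of the donors of the fluid, not of the macrophages, and the PBS group received no airway fluid of any kind. EVs, proteins that travel with them, donor genotype and storage of the fraction thus cannot be told apart in the comparison with PBS. Mice of the study were 7 to 16 weeks old. The hours of contact with the fractions and, for each group, whether its 4 libraries stand for separate mice, pools or wells are not given in the sources used here, and p-values then measure only the spread between these libraries, which may be technical.

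EVs are membrane particles that cells release with proteins, lipids and RNA inside them, and macrophages take them up readily. Macrophages read foreign or displaced material through Toll-like receptors, lectins and nucleic acid sensors, which lead to nuclear factor kappa B (NF-kB) and to interferon regulatory factors. NF-kB drives cytokines, chemokines and its own inhibitors, secreted interferon acts back on the cell through its receptors to raise a large set of antiviral genes, and the factor NRF2 drives enzymes that protect against oxidants. Y RNAs are short noncoding RNAs transcribed by RNA polymerase III and bound by the Ro60 protein, and the mouse has 2 of them.

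The RNA that the fluid donors lacked is shown first, with the other murine Y RNA beside it. Both lie on chromosome 6, Rny1 at chr6:47788069-47788180 on the minus strand and Rny3 at chr6:47781624-47781725 on the plus strand (GENCODE M21, GRCm38), and each is a single-exon noncoding gene. The DNA letters of the 112 bases of Rny1 and the 102 bases of Rny3 read 5′ to 3′ as follows, with no part marked.
Rny1: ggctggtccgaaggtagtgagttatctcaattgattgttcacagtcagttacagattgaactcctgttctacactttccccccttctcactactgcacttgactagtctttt
Rny3: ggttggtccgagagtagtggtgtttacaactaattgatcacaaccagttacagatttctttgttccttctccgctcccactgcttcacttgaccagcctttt
These RNAs end in a run of uridines without a poly(A) tail, and the libraries were primed on poly(A), so their counts check neither the genotype nor the labels. Rny1 had 0 counts over the 4 PBS libraries, 0.5 counts at each of its 2 listed entries over the RNY1-/- EVFx libraries and 4.5 at each over the RNY1+/+ EVFx libraries, where the same reads were shared between the entries. Rny3 had 3.62 counts over the PBS libraries and 1 over the RNY1-/- EVFx libraries. None of these genes could be tested.

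Interferon-stimulated genes and NF-kB targets were among the genes that rose most, so stretches of the promoters of some of them are shown, read from RefSeq windows that run from 250 bases before to 50 bases after each gene's start (GRCm38.p6). Windows were held for 27025 genes and for 7625 of the 10730 genes tested. The searched letters were GAAANNGAA, part of the interferon-stimulated response element, GGANTTTCC, part of the kB site bound by NF-kB, TGACNNNGC, the core of the antioxidant response element bound by NRF2, and TCACNCCAC, a sterol regulatory element, all on either strand, and 38 genes held both of the first 2. The letters found are in capitals in these 29-base stretches, which read 5′ to 3′ on the gene's own strand.
Ifit1: cagtctcagtTTCAGTTTCtcactgctga
Isg15: gtaggaaaagGAAACCGAAacagaaaata
Rsad2: tggtccaactTTCATTTTCagaaaacaga
Gbp2: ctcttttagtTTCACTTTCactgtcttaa
Igtp: tctaggaactGAAACTGAAagctgttcgg
Cxcl10: tcacgctttgGAAAGTGAAacttacctca
Cxcl1: ctgtactccgGGAATTTCCctggcccgga
Cxcl2: ctgagctcagGGAATTTCCctggtccccg
Cxcl3: agctgcggggGGAATTTCCccagcccggg
Nfkbia: tgactggcttGGAAATTCCccgcgcctga
The stretches lie at chr19:34640795-34640823 on the plus strand for Ifit1, chr4:156200872-156200900 on the minus strand for Isg15, chr12:26456553-26456581 on the minus strand for Rsad2, chr3:142620595-142620623 on the plus strand for Gbp2, chr11:58199512-58199540 on the plus strand for Igtp and chr5:92349084-92349112 on the minus strand for Cxcl10. For the kB letters they lie at chr5:90891165-90891193 for Cxcl1, chr5:90903793-90903821 for Cxcl2 and chr5:90786019-90786047 for Cxcl3, all on the plus strand, and at chr12:55492658-55492686 on the minus strand for Nfkbia. In each of these genes the capitals begin before the start of the gene, and Isg15, Ifit1 and Nfkbia held 3, 3 and 2 copies of which 1 is shown. The 3 Cxcl genes share the same 9 capital letters and lie on the same chromosome. A match describes the letters of a window and not a bound site.

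The 8 libraries held between 4059987 and 7613972 counts, and total counts did not differ between the groups beyond their spread (exact two-sided permutation test, p = 0.429, smallest possible p 0.0286). Macrophage identity was clear in both groups, with all 10 macrophage markers expressed and a summed level of 9621 to 13722 CPM in PBS and 8786 to 9823 CPM after RNY1-/- EVFx. Markers of other cells that airway fluid could hold were summed as well. Neutrophil markers summed to 353 to 374 CPM in PBS and 212 to 290 CPM after RNY1-/- EVFx, with Ly6g at 0 in both. The 11 lung epithelium markers summed to 8.53 to 33.1 CPM in PBS and 9.94 to 30.7 CPM after RNY1-/- EVFx. Krt18 was the highest of them, and the 4 surfactant genes were at 0 in both groups. Eosinophil markers summed to 7.17 to 13.5 CPM in PBS and 1.31 to 2.46 CPM after RNY1-/- EVFx, T cell markers to 2.74 to 9.63 and 1.18 to 2.38 CPM, and B cell markers to 9.84 to 16.2 and 2.63 to 5.51 CPM. The 6 fibroblast markers summed to 25.2 to 51.6 CPM in PBS and 11.1 to 20.9 CPM after RNY1-/- EVFx, and the 6 dendritic cell markers to at most 3.09 CPM in any of the 8 libraries. PBS replicate 3 stood apart from the other PBS libraries, at Euclidean distances over log2 CPM of 51.9 to 70.7 against 26.1 to 38.5 among the other 3, and the biological coefficient of variation was 21.0% in PBS and 10.1% in RNY1-/- EVFx. The 10 most abundant genes took 21.7% to 24.3% of the counts after RNY1-/- EVFx and 15.7% to 17.4% in PBS. Mitochondrial genes took 5.77% ± 0.338 (SD, n = 4) of the counts after RNY1-/- EVFx and 6.49% ± 0.817 (SD, n = 4) in PBS, a difference within the spread (exact two-sided permutation test, p = 0.171). Over protein-coding genes alone the share was lower after RNY1-/- EVFx, at 1.41% against 2.19% in PBS (exact two-sided permutation test, p = 0.0286, the smallest possible).

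RNY1-/- EVFx changed a large share of the macrophage transcriptome. Of 10730 genes tested with edgeR's quasi-likelihood test (3 of the 10733 failed its filter), 2416 were differentially expressed genes (DEGs), meaning a Benjamini-Hochberg adjusted p under 0.05 and a log2 fold change above 1 in size. They made up 22.5% of the genes tested, and 967 (9.01%) rose and 1449 (13.5%) fell. By adjusted p alone 6258 genes (58.3%) passed, 27.7% higher and 30.7% lower, and in 15.8% of the genes tested every RNY1-/- EVFx library lay above every PBS library and in 36.1% below. With library totals in place of TMM scaling, which moved the median log2 fold change of all genes by -0.24, 698 rose and 2138 fell. The larger changes lay mostly upward, with 309 genes above a log2 fold change of 2 and 258 below -2, and 73 above 4 and 13 below -4. Of the DEGs, 2119 were protein-coding. Values by library are given below in the order of replicates 1 to 4 as CPM by library total, and log2 fold changes come from the TMM-scaled fit with their standard error (n = 4 per group).

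**Figure D1:**
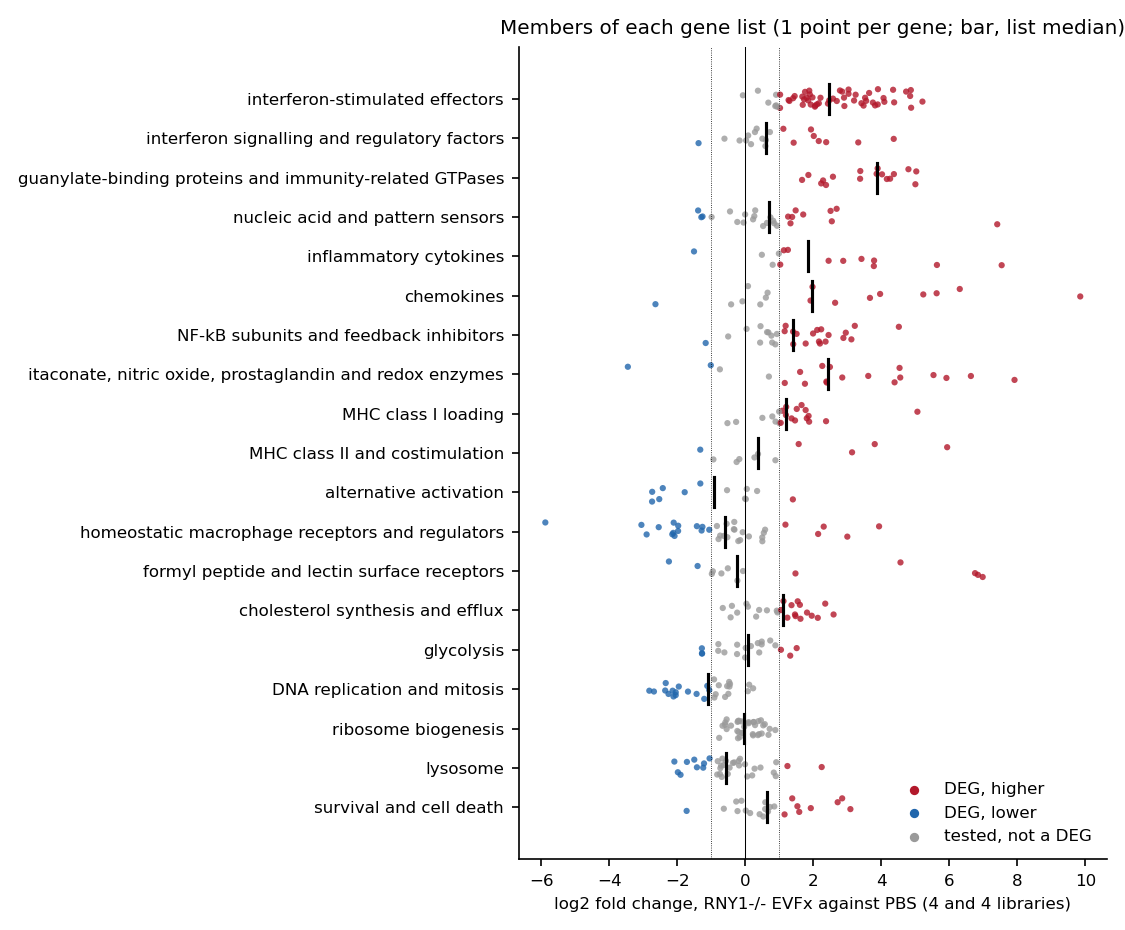
Log2 fold change of RNY1-/- EVFx against PBS (horizontal axis) for the tested members of 19 gene lists, where each point is a gene, coloured as a higher DEG, a lower DEG or no DEG, each black bar is the median of a list and dotted lines mark -1 and 1; Cxcl3, Il12b, Nos2 and Tarm1 stand at fitted values and not at their bounds. All 17 tested guanylate-binding proteins and immunity-related GTPases and 51 of 58 interferon-stimulated effectors were higher, and 15 of 28 genes of DNA replication and mitosis were lower.

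Among well-expressed DEGs, meaning a mean of 10 CPM or more and groups that did not overlap, the greatest rise was that of Cxcl3, a chemokine that draws neutrophils. Cxcl3 was at 0.205, 0, 0.457 and 0.178 CPM in PBS and at 92.9, 66.2, 301 and 203 CPM after RNY1-/- EVFx, with at most 3 counts in any PBS library, so that it was at least 288-fold higher. Acod1, the mitochondrial enzyme that makes itaconate, was at 2.46, 3.55, 5.72 and 2.49 CPM in PBS and 703, 719.8, 595 and 842 CPM after RNY1-/- EVFx (log2 fold change 7.91 ± 0.25, adjusted p = 5.6e-09). Clec4e, the lectin receptor Mincle, was at 21.3, 18.8, 21.5 and 17.8 CPM in PBS and 2492, 2484, 2809.7 and 3559.9 CPM after RNY1-/- EVFx (7.41 ± 0.19 on the log2 scale, adjusted p = 3.1e-09). The groups were far apart in all 3 genes, and Clec4e reached the highest level. H2-M2, a nonclassical MHC class I gene, was at 5.33, 2.01, 4.57 and 3.03 CPM in PBS and 441, 378, 531 and 688 CPM after RNY1-/- EVFx (7.38 ± 0.31). The formyl peptide receptors Fpr1 and Fpr2, which sense bacterial and mitochondrial peptides, rose by 6.84 ± 0.33 and 6.75 ± 0.22 on the log2 scale. Also among the 12 greatest rises of well-expressed genes were Ptgs2, the inducible cyclooxygenase (6.63 ± 0.37), Slc13a3, a dicarboxylate transporter (6.41 ± 0.25), Plpp1, a lipid phosphatase (7.18 ± 0.25), and Zfp811 and Rasgrp1, which were at or under 3 counts in every PBS library and at least 95.0-fold and 35.6-fold higher after RNY1-/- EVFx.

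Interferon-stimulated genes formed the broadest rise. Of 58 tested members of a list of 60 interferon-stimulated effectors, 51 rose and none fell, against 9.01% and 13.5% of all genes tested, and the median log2 fold change was 2.45 where that of all tested genes was -0.03. Ifit1, which binds viral RNA that lacks a self cap, was at 94.3, 71.7, 112 and 96.6 CPM in PBS and 2634, 2248, 1653 and 2659 CPM after RNY1-/- EVFx (4.87 ± 0.21, adjusted p = 2.7e-08). Rsad2, the antiviral enzyme viperin, was at 160.3, 159, 169 and 165 CPM in PBS and 2822, 2854, 1333 and 2236 CPM after RNY1-/- EVFx (4.06 ± 0.23). Isg15, a ubiquitin-like protein that is attached to other proteins, was at 65.8, 65.96, 26.99 and 43.8 CPM in PBS and 733, 742, 462 and 619 CPM after RNY1-/- EVFx (3.89 ± 0.28). The lowest RNY1-/- EVFx library of each of these genes, replicate 3, still lay several-fold above the highest PBS library. Ms4a4c, Ifi44, Ifit2, Slfn4 and Mx1 rose by 5.21 ± 0.31, 4.87 ± 0.23, 4.85 ± 0.21, 4.73 ± 0.35 and 4.09 ± 0.25. The interferon response element letters shown above stood in the promoters of 27 of the 46 list members with a window (58.7%), against 8.87% of tested genes, 15.7% of the genes that rose, 7.26% of those that fell and 9.76% of all promoters.

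The guanylate-binding proteins (GBPs) and immunity-related GTPases, which attack the vacuoles and membranes of intracellular microbes, rose in every tested case. All 17 tested members of 20 were higher, with a median log2 fold change of 3.86 and a range from 1.67 to 5.03. Gbp2 was at 21.7, 21.9, 15.1 and 23.7 CPM in PBS and 710.0, 659, 379 and 539 CPM after RNY1-/- EVFx (5.03 ± 0.23, adjusted p = 3.5e-08). Gbp5, which promotes inflammasome assembly, was at 2.25, 1.699, 2.402 and 0.178 CPM in PBS and 47.98, 49.4, 30.05 and 42.3 CPM after RNY1-/- EVFx (5.00 ± 0.34), and Gbp3 rose by 4.79 ± 0.19. Replicate 3 was the lowest treated library in Gbp2, Gbp3 and Gbp5 and still exceeded every PBS library. The GTPases Igtp and Irgm1 rose by 2.57 ± 0.21 and 2.23 ± 0.14. Tgtp1 and Tgtp2 (3.89 ± 0.33 and 3.86 ± 0.33) are near-identical copies whose reads were divided between them, and the same may hold for some GBPs, so single members of these families are uncertain. Of the 10 members with a promoter window, 9 held the response element letters.

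Transcription factors and sensors of the interferon system moved less uniformly. Of 20 tested genes of interferon signalling, 8 rose and 1 fell, with a median log2 fold change of 0.59. Stat2, which carries the signal of type I interferon to the nucleus, was at 52.1, 65.7, 52.6 and 53.7 CPM in PBS and 209, 228, 125 and 161 CPM after RNY1-/- EVFx (1.93 ± 0.18, adjusted p = 5.4e-06). Irf7, which amplifies type I interferon, rose by 2.01 ± 0.28. Socs3, an inhibitor of cytokine receptors, was at 0.8197, 0.618, 1.14 and 0.712 CPM in PBS and 15.9, 15.5, 11.6 and 13.96 CPM after RNY1-/- EVFx (4.36 ± 0.24). Irf8, a factor of monocyte and dendritic cell identity, was the member that fell, from 313, 322, 184 and 258 CPM in PBS to 93.5, 99.6, 79.8 and 78.1 CPM after RNY1-/- EVFx (-1.38 ± 0.17, adjusted p = 5.0e-05). Among 26 tested sensors 9 rose and 3 fell. Beside Clec4e, the rises included the RNA helicase sensors Ifih1 (2.68 ± 0.16) and Rigi (2.54 ± 0.13), the DNA sensor Cgas (1.33 ± 0.17) and Tlr1 (2.505 ± 0.11), a partner of Tlr2 (1.48 ± 0.15) in sensing lipopeptides. Tlr4, the lipopolysaccharide receptor, was at 64.1, 52.2, 72.96 and 61.04 CPM in PBS and 59.1, 48.7, 52.2 and 50.1 CPM after RNY1-/- EVFx, with a log2 fold change of -0.01 ± 0.12 that did not pass the test. Clec7a, the beta-glucan receptor, fell by 1.39 on the log2 scale.

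Chemokines split into a group that rose steeply, a group that did not pass the test and a single member that fell. Of 16 tested, 9 rose and 1 fell (median log2 fold change 1.94, with Cxcl3 at its bound also 1.94), and 7 of the 23 listed were too low to test. Cxcl2, which recruits neutrophils through the receptor CXCR2 as Cxcl1 and Cxcl3 do, was at 4.51, 5.25, 4.35 and 5.16 CPM in PBS and 238, 227, 444 and 394 CPM after RNY1-/- EVFx (6.30 ± 0.29, adjusted p = 3.4e-08). Cxcl1 was at 0.615, 1.39, 1.601 and 0.8897 CPM in PBS and 9.85, 11.3, 13.3 and 14.8 CPM after RNY1-/- EVFx (3.66 ± 0.28). Replicates 3 and 4 were the highest treated libraries in Cxcl1, Cxcl2 and Cxcl3, whose kB letters are printed above. In Nfkbia, whose kB letters are printed there too, and in Cxcl10, which also held them, replicate 3 was the lowest. Cxcl10, which recruits activated T cells through CXCR3, was at 2.66, 5.56, 5.95 and 5.52 CPM in PBS and 261, 245, 128 and 194 CPM after RNY1-/- EVFx (5.62 ± 0.28), and Cxcl9, a ligand of the same receptor, rose by 5.23 ± 0.38. Ccl5, which attracts T cells and monocytes, was at 195, 161, 71.6 and 126 CPM in PBS and 2034, 2279, 1266 and 1742 CPM after RNY1-/- EVFx (3.96 ± 0.30). Ccl2, the main monocyte attractant, was at 94.1, 90.8, 132 and 48.9 CPM in PBS and 158, 155, 51.5 and 101 CPM after RNY1-/- EVFx, so that the groups overlapped and the difference did not pass the test (0.60 ± 0.34, adjusted p = 0.15). Its neighbours Ccl7 and Ccl8 also did not pass, with log2 fold changes of -0.42 ± 0.30 and 0.44 ± 0.27. Ccl6 was the chemokine that fell, from 936, 764, 471 and 706 CPM in PBS to 106, 96.7, 96.1 and 90.5 CPM after RNY1-/- EVFx (-2.65 ± 0.19). The kB letters stood in the promoters of 4 of the 11 chemokines with a window, Cxcl1, Cxcl2, Cxcl3 and Cxcl10, against 1.61% of tested genes, 3.41% of the genes that rose, 1.62% of those that fell and 1.45% of all promoters.

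Inflammatory cytokines rose from low levels. Of 14 tested, 10 rose and 1 fell (median log2 fold change 1.85, with Il12b at its bound also 1.85), while 11 of the 25 listed were too low to test. Tnf, the gene of tumour necrosis factor, was at 6.35, 6.95, 3.89 and 4.98 CPM in PBS and 60.2, 73.3, 54.9 and 72.7 CPM after RNY1-/- EVFx (3.78 ± 0.19, adjusted p = 5.6e-08). Il1b, which encodes the precursor of interleukin 1 beta, was at 0, 0.463, 0.915 and 0.534 CPM in PBS and 14.1, 19.2, 21.2 and 28.3 CPM after RNY1-/- EVFx (5.63 ± 0.42, adjusted p = 1.1e-06). Il12b, a subunit of interleukins 12 and 23, was at 0, 0, 0.457 and 0 CPM in PBS and 16.5, 16.2, 12.3 and 28.1 CPM after RNY1-/- EVFx, at least 31.8-fold higher. No cytokine of these 3 overlapped between the groups. Il1a rose by 3.41 ± 0.19, and Tnfsf15 and Tnfsf10, ligands of the tumour necrosis factor family, by 3.78 ± 0.27 and 2.88 ± 0.36. Tgfb1, the gene of an immunosuppressive growth factor, fell from 17.5, 22.4, 8.69 and 12.99 CPM in PBS to 5.12, 5.06, 6.16 and 2.36 CPM after RNY1-/- EVFx (-1.51 ± 0.31, adjusted p = 0.0018). Il6 was at 0 in every PBS library and at 1.84, 0.894, 0.985 and 2.19 CPM after RNY1-/- EVFx, below the limit of 3 CPM. Ifnb1, the gene of interferon beta, was at 0 in every PBS library and at 0.394, 0.298, 0.739 and 0.505 CPM after RNY1-/- EVFx. Every treated library thus had a count and no PBS library did. These were at or under 3 counts in each library, below the limit of 3 CPM, and the gene was not tested.

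Inhibitors and targets of NF-kB rose, while none of the genes of its subunits did so past the limit of 1. All 29 listed genes were tested, and 18 rose and 1 fell, with a median log2 fold change of 1.41. The subunit genes Nfkb1, Rel and Relb stood at 0.79 ± 0.14, 0.77 ± 0.12 and 0.68 ± 0.21, and Nfkb2 at 0.43 ± 0.22, and of these Relb and Nfkb2 passed the limit with the GC and length trends removed (1.108 and 1.01). Nfkbiz, a nuclear cofactor of NF-kB needed for a subset of its targets, was at 3.89, 6.18, 10.1 and 5.87 CPM in PBS and 123, 122, 128 and 126 CPM after RNY1-/- EVFx (4.51 ± 0.20, adjusted p = 3.0e-08). Nfkbia, the inhibitor that holds NF-kB in the cytoplasm, was at 138, 133, 133 and 147 CPM in PBS and 849.9, 908, 812 and 1032 CPM after RNY1-/- EVFx (2.95 ± 0.12). Tnfaip3, the deubiquitinase A20 that ends the signal, was at 34.4, 36.6, 53.5 and 38.1 CPM in PBS and 166, 159.5, 171 and 204 CPM after RNY1-/- EVFx (2.36 ± 0.16). The treated libraries of Nfkbiz lay within a few CPM of each other. Traf1, Birc3, Icam1 and Nfkbie rose by 3.22 ± 0.18, 2.88 ± 0.11, 2.45 ± 0.21 and 2.23 ± 0.14. The member that fell was Rela, the gene of the p65 subunit, from 38.1, 41.7, 13.7 and 29.01 CPM in PBS to 12.7, 13.6, 8.87 and 10.8 CPM after RNY1-/- EVFx (-1.17 ± 0.29, adjusted p = 0.0051). That call was not past the limit of 1 without PBS replicate 2 (-0.98) or with the GC and length trends removed (-0.56), where no member of the list fell. The kB letters stood in 6 of the 23 promoters of the list with a window (26.1%).

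**Figure D2:**
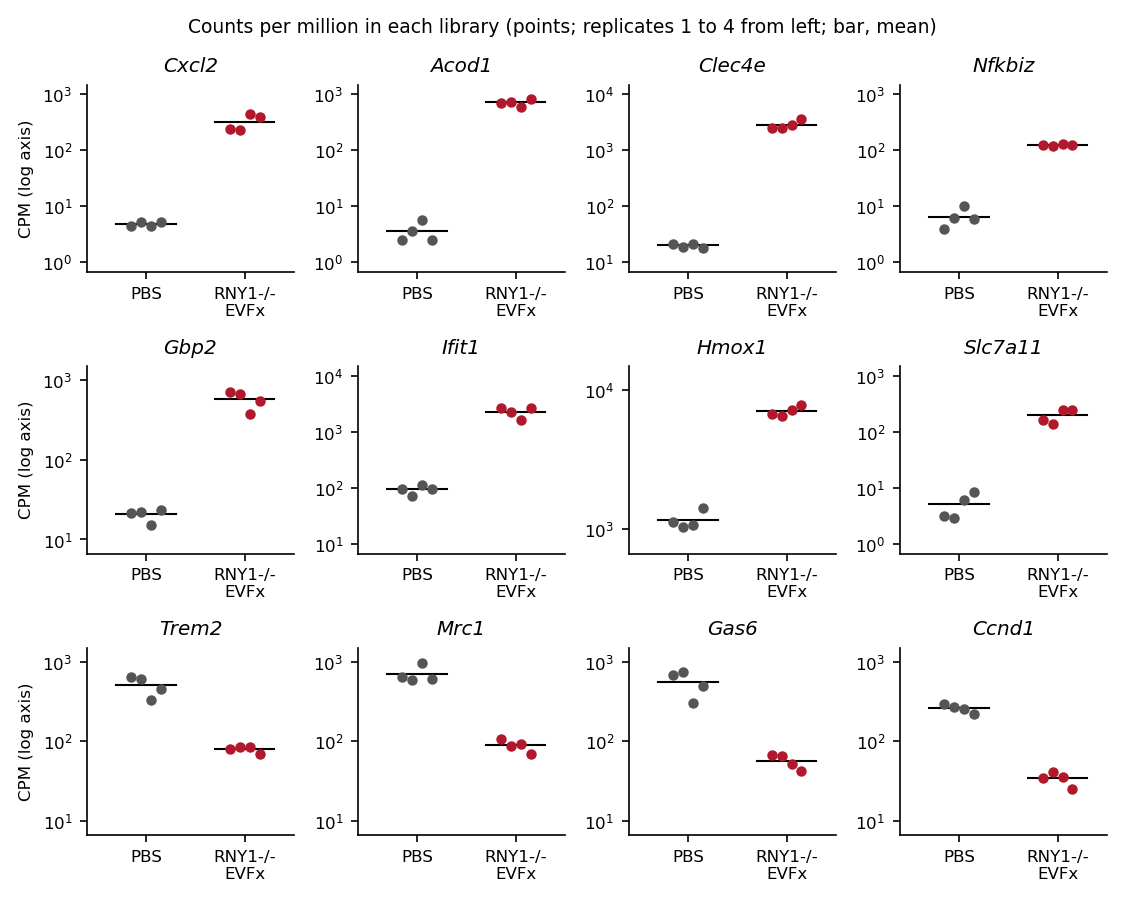
CPM on a log axis of 12 genes in each of the 4 PBS and 4 RNY1-/- EVFx libraries, where each point is a library and each line the group mean. The points of the groups do not overlap in any of the 12 genes, and Acod1 and Clec4e show the widest gaps.

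Enzymes of itaconate, nitric oxide, prostaglandin and redox metabolism also rose, and the redox genes among them reached high levels. Of 20 tested, 16 rose and 2 fell, with a median log2 fold change of 2.44 (2.44 with Nos2 at its bound). Hmox1, the heme-degrading enzyme and a target of NRF2, was at 1125, 1038, 1075 and 1411 CPM in PBS and 6713, 6530.0, 7270.2 and 7815 CPM after RNY1-/- EVFx (2.85 ± 0.14, adjusted p = 6.0e-08). Slc7a11, which imports cystine for glutathione synthesis, was at 3.07, 2.94, 5.95 and 8.36 CPM in PBS and 162, 137, 249.8 and 244 CPM after RNY1-/- EVFx (5.53 ± 0.34, adjusted p = 2.5e-07). Gclm, a subunit of the first enzyme of glutathione synthesis, was at 160.0, 159.5, 282 and 254 CPM in PBS and 2007, 1889.7, 2538 and 2413 CPM after RNY1-/- EVFx (3.61 ± 0.22). Every treated library lay above every PBS library in all 3 genes. Glutathione reductase (Gsr), thioredoxin reductase (Txnrd1), sulfiredoxin (Srxn1) and Nqo1 rose by 2.39 ± 0.20, 2.26 ± 0.17, 1.61 ± 0.14 and 2.49 ± 0.28. Sod2, the mitochondrial superoxide dismutase, was at 86.2, 79.4, 93.5 and 77.9 CPM in PBS and 1559, 1631, 1666 and 1833 CPM after RNY1-/- EVFx (4.55 ± 0.13). Nos2, the inducible nitric oxide synthase, was at 0.4099, 0.309, 0 and 0.178 CPM in PBS and 18.4, 14.1, 5.67 and 13.1 CPM after RNY1-/- EVFx, at least 22.3-fold higher. Ptges, the prostaglandin E synthase that works with Ptgs2, rose by 4.39 ± 0.32, and the constitutive cyclooxygenase Ptgs1 fell from 18.9, 16.4, 13.3 and 14.2 CPM to 0.394, 0.894, 3.202 and 1.01 CPM (-3.46 ± 0.39). The antioxidant element letters stood in the promoters of 4 of the 15 list members with a window, Gclm, Txnrd1, Srxn1 and Sod1, against 17.3% of tested genes and 13.99% of all promoters. Arg1, arginase 1, was below the limit of 3 CPM in all 8 libraries and was not tested. Outside that list, peroxiredoxin 1 (Prdx1) and ferritin heavy chain (Fth1), 2 of the 10 most abundant genes, rose by 2.75 ± 0.20 and 1.12 ± 0.11 (Fth1 by 0.88 with library totals, short of the limit), and both share reads with many processed pseudogenes, so that their levels are uncertain.

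Antigen presentation rose on the class I side. Of 21 tested genes of MHC class I loading 14 rose and none fell (median log2 fold change 1.20), including the class I heavy chain H2-K1, at 2835, 2589, 2529.7 and 2762 CPM in PBS and 7713, 7677, 6137 and 6992 CPM after RNY1-/- EVFx (1.65 ± 0.11). B2m, the light chain of class I, and the peptide transporter Tap1 rose by 1.20 ± 0.10 and 1.81 ± 0.19 (B2m by 0.96 with library totals and 0.92 with GC and length trends removed, short of the limit), and H2-Q7 by 5.06 ± 0.17, though the H2-Q genes are close copies whose reads can be split. Of 11 tested class II and costimulatory genes 4 rose and 1 fell (median 0.37). Cd274, which encodes the inhibitory ligand PD-L1, was at 24.2, 22.9, 38.4 and 27.9 CPM in PBS and 384, 330.3, 282 and 336 CPM after RNY1-/- EVFx (3.80 ± 0.18). Cd69 (5.93 ± 0.23), Cd40 (3.14 ± 0.21) and Cd86 (1.57 ± 0.16) were the other members that rose, and Cd83 fell (-1.33 ± 0.16). Cd74, the class II invariant chain, was at 36.9, 32.4, 12.6 and 24.4 CPM in PBS and 17.3, 23.98, 23.6 and 15.6 CPM after RNY1-/- EVFx and did not pass the test.

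Among genes of resting and alternatively activated macrophages that passed the test, most fell. Gpr34, a lysophosphatidylserine receptor, showed the greatest fall of the well-expressed genes, from 31.6, 28.6, 34.3 and 26.2 CPM in PBS to 0.263, 0.298, 0 and 1.01 CPM after RNY1-/- EVFx (-5.88 ± 0.35, adjusted p = 2.0e-07). Of 36 tested homeostatic receptors and regulators, 14 fell and 5 rose (median log2 fold change -0.60), against 13.5% and 9.01% of all genes tested. Gas6, the bridging ligand for the uptake of dying cells, was at 677, 747, 299 and 496 CPM in PBS and 66.3, 65.5, 51.97 and 41.9 CPM after RNY1-/- EVFx (-3.06 ± 0.27). The Fc receptor gene Fcgr3 and the G protein regulator Rgs2 fell by 2.55 and 2.15 on the log2 scale. Rises in the same list came from Cebpb (2.30 ± 0.11), the complement genes C3 (3.00 ± 0.21) and Cfb (3.93 ± 0.28), and Adgre1, which encodes the macrophage antigen F4/80 and was at 763, 776, 1013 and 885 CPM in PBS and 3278, 3071, 3248 and 3215 CPM after RNY1-/- EVFx (2.14 ± 0.12). Csf1r, the receptor for the growth factor of these cells, was at 302, 332, 179.8 and 287 CPM in PBS and 154, 162, 163 and 157 CPM after RNY1-/- EVFx, a log2 fold change of -0.55 ± 0.16 that was not past the limit of 1.

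Of 12 tested genes of alternative activation, 6 fell and 1 rose, with a median log2 fold change of -0.93. Mrc1, the mannose receptor CD206, was at 649, 592, 968 and 609 CPM in PBS and 106, 88.5, 92.9 and 69.8 CPM after RNY1-/- EVFx (-2.74 ± 0.18, adjusted p = 4.1e-07). Trem2, a lipid receptor of tissue macrophages, was at 641, 597, 327 and 457 CPM in PBS and 80.2, 85.5, 84.2 and 68.5 CPM after RNY1-/- EVFx (-2.43 ± 0.19). The lectin Clec10a, the scavenger receptor Stab1, the nuclear receptor Pparg and the factor Egr2 fell by 2.75, 2.53, 1.79 and 1.33 on the log2 scale, and Klf4 rose (1.40 ± 0.19). PBS replicate 3 was the highest of the PBS libraries in Mrc1 and the lowest in Trem2 and Stab1, and none of these overlapped with the treated libraries. The B cell, T cell, eosinophil and fibroblast marker sums given above were lower after RNY1-/- EVFx as well, and whether they have a part in these falls was not tested.

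The other great falls covered several functions. Crip1, a LIM-domain protein, was at 436, 420.0, 220.3 and 345 CPM in PBS and 24.4, 21.7, 21.4 and 20.5 CPM after RNY1-/- EVFx (-3.77 ± 0.21). Mxd4, an antagonist of MYC, was at 58.4, 61.3, 35.2 and 48.8 CPM in PBS and 3.81, 2.53, 3.69 and 2.52 CPM after RNY1-/- EVFx (-3.78 ± 0.23). Rasgrp3, an activator of RAS and RAP proteins, was at 62.9, 73.2, 73.9 and 69.8 CPM in PBS and 4.47, 5.81, 3.94 and 4.04 CPM after RNY1-/- EVFx (-3.68 ± 0.14), while its relative Rasgrp1 rose as described above. The remaining falls among the 12 greatest were those of Pcp4l1 (-4.44 ± 0.17), Mamdc2 (-4.02 ± 0.44), the actin-binding Lsp1 (-3.71 ± 0.28), the centromeric histone Cenpa (-3.54 ± 0.20), the endosomal sodium-proton exchanger Slc9a9 (-3.49 ± 0.22), the miR-223 host transcript Mir223hg (-3.48 ± 0.25), Rnf150 (-3.43 ± 0.14) and Igfbp4 (-3.41 ± 0.25), which encodes a binding protein of insulin-like growth factors.

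Cell cycle genes fell without exception among those that changed. Of 28 tested genes of DNA replication and mitosis 15 fell and none rose (median log2 fold change -1.09), and 8 of the 36 listed were too low to test. Ccnd1, the cyclin D1 that lets growth factor signals start the cycle, was at 295, 270.5, 256 and 219 CPM in PBS and 34.3, 41.4, 36.1 and 25.2 CPM after RNY1-/- EVFx (-2.69 ± 0.15, adjusted p = 1.1e-07). Mcm2, a subunit of the replicative helicase, was at 28.1, 29.8, 27.9 and 24.4 CPM in PBS and 6.698, 4.77, 4.43 and 6.23 CPM after RNY1-/- EVFx (-2.05 ± 0.17). Rrm2, the ribonucleotide reductase subunit of S phase, was at 13.3, 11.6, 20.8 and 12.8 CPM in PBS and 2.495, 2.38, 5.17 and 1.85 CPM after RNY1-/- EVFx (-2.12 ± 0.30). All treated libraries lay below all PBS libraries in each of these, while the mitotic genes were near the lower limit of detection, as with Ccna2 at 7.17, 7.42, 14.4 and 8.19 CPM in PBS and 1.05, 1.19, 2.22 and 0.168 CPM after RNY1-/- EVFx. These are totals over all cells of a well, in which fewer cycling cells and less RNA per cycling cell cannot be told apart.

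Surface receptors of the formyl peptide and lectin families went both ways, with 5 of 13 tested higher, 2 lower and a median of -0.24 (also with Tarm1 at its bound). Fpr2 was at 1.02, 0.463, 0.915 and 1.25 CPM in PBS and 76.5, 81.2, 80.3 and 96.3 CPM after RNY1-/- EVFx (6.75 ± 0.22). Marco, a scavenger receptor that binds particles and bacteria, was at 7.38, 10.7, 5.95 and 6.05 CPM in PBS and 139.9, 232, 125 and 116 CPM after RNY1-/- EVFx (4.56 ± 0.26). Tarm1, an activating receptor of myeloid cells, was at or under 3 counts in every PBS library and at least 30.6-fold higher. The inhibitory receptor Cd300a fell from 182, 176, 98.5 and 170.5 CPM to 32.6, 31.6, 24.8 and 22.5 CPM (-2.25 ± 0.20).

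Genes of cholesterol synthesis, uptake and efflux rose in 14 of 25 tested cases and none fell (median log2 fold change 1.12). Lss, the synthesis enzyme that closes the sterol rings, was at 6.56, 11.1, 10.98 and 11.03 CPM in PBS and 48.99, 47.8, 51.2 and 55.7 CPM after RNY1-/- EVFx (2.59 ± 0.17, adjusted p = 3.3e-07). The synthesis enzymes Hsd17b7 and Sqle rose by 2.35 ± 0.18 and 1.60 ± 0.18. The sterol element letters stood in 1 of the 17 promoters of the list with a window, against 1.35% of tested genes. The exporter Abca1 was at 465, 435, 482 and 455 CPM in PBS and 252, 234, 245 and 249.8 CPM after RNY1-/- EVFx, a log2 fold change of -0.67 ± 0.09 that was not past the limit of 1.

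The comparison with RNY1+/+ EVFx asks how this response differed between fluid of RNY1-/- and of RNY1+/+ donors. The paper names GemPharmatech as the source of the RNY1-/- mice and JAX for the others, and does not say whether donors were littermates. Donor genotype can therefore not be told apart from mouse source or from the separate preparation of each fluid. Between the EV groups 243 of 10322 genes were DEGs (2.35%), of which 39 were higher after RNY1-/- EVFx (0.378%) and 204 lower (1.98%). The interferon-stimulated effectors (0 higher and 1 lower of 58), the GBPs and GTPases (0 and 0 of 18), the redox list (0 and 0 of 19) and the cholesterol list (0 and 1 of 25) held about the share found among all genes, by edgeR. By adjusted p alone, which 52.1% of all genes passed, 14 effectors were higher and 7 lower, 4 and 0 GBPs and GTPases, 2 and 6 redox genes, and 6 and 10 cholesterol genes. By that measure 3 of 21 interferon signalling genes were higher and 12 lower, and 3 and 12 of 22 MHC class I loading genes. The median log2 fold changes of these lists were -0.34 and -0.40, against 0.09 in the effectors and 0.22 in the GBPs and GTPases. Against PBS, 57 of 58 effectors rose after RNY1+/+ EVFx and 51 of 58 after RNY1-/- EVFx. Among all genes tested against PBS, 1775 of 10797 and 2416 of 10730 were DEGs. Acod1, Clec4e, Cxcl3 and Hmox1 differed between the EV groups by log2 fold changes of -0.31 ± 0.10, -0.02 ± 0.12, 0.24 ± 0.41 and -0.23 ± 0.10. Beside these, the values against the PBS libraries, which both EV comparisons share, were 8.23, 7.44, 9.64 and 3.08 for RNY1+/+ EVFx and 7.91, 7.41, 9.85 and 2.85 for RNY1-/- EVFx, where those of Cxcl3 are fits against at most 3 counts per PBS library.

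Inflammatory cytokines held 3 of the genes that were lower after RNY1-/- EVFx than after RNY1+/+ EVFx, of 14 tested, with none higher. Tnf was at 60.2, 73.3, 54.9 and 72.7 CPM after RNY1-/- EVFx and 149, 147, 137 and 204 CPM after RNY1+/+ EVFx (-1.22 ± 0.13, adjusted p = 2.0e-04). Il1b was at 14.1, 19.2, 21.2 and 28.3 CPM after RNY1-/- EVFx and 41.4, 48.8, 51.3 and 57.1 CPM after RNY1+/+ EVFx (-1.21 ± 0.17, adjusted p = 2.8e-04). Tgfb1 was the other (-1.30 ± 0.24). Both Tnf and Il1b were thus above PBS in either EV group, and the RNY1-/- EVFx libraries lay below every RNY1+/+ EVFx library, as was the case for 26.9% of the genes tested. Cxcl1 was at 9.85, 11.3, 13.3 and 14.8 CPM after RNY1-/- EVFx and 17.6, 25.1, 25.03 and 35.9 CPM after RNY1+/+ EVFx (-1.02 ± 0.20), the only DEG among 16 tested chemokines. Socs3 (-1.07 ± 0.12) and Tarm1 (-1.10 ± 0.15) were lower as well, and of the NF-kB list Nfkb2, Rela and Traf2 were lower among 29 tested. The calls of Tnf, Il1b and Tgfb1 held when any of the 8 libraries was left out, while Cxcl1 fell short of the limit without RNY1+/+ EVFx replicate 4 (-0.83), RNY1-/- EVFx replicate 1 (-0.91) or RNY1-/- EVFx replicate 2 (-0.97). Without RNY1+/+ EVFx replicate 4 Nfkb2 and Rela (-0.99 and -0.94), and Tarm1 (-0.96, and -0.99 without RNY1-/- EVFx replicate 1), also fell short. With the trends of GC content and length removed from each library, Il1b, Cxcl1 and Tgfb1 stood at -1.33, -1.21 and -1.06 and remained DEGs, and Tnf (-0.999), Socs3 (-0.57), Nfkb2 (-0.68), Rela (-0.55) and Traf2 (-0.98) did not.

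The greatest differences among well-expressed DEGs, of which 7 were higher and 82 lower, lay elsewhere. The ferritin light chain gene Ftl1 was at 752, 887, 689 and 649 CPM after RNY1-/- EVFx and 1878, 1798, 1733 and 2803 CPM after RNY1+/+ EVFx (-1.40 ± 0.14, adjusted p = 2.0e-04), while the PBS libraries ranged from 717 to 3265 CPM, with replicate 3 the lowest. Its pseudogene-like copies Ftl1-ps1 (-1.79 ± 0.24) and Gm15590 (-1.67 ± 0.22) and the overlapping entry Gm56125 (-1.31 ± 0.14) share reads with it, so these 4 are not separate findings. Zmiz2, a transcriptional coactivator, was the other of the 5 greatest falls among them (-1.29 ± 0.20). The 5 greatest rises among them were the noncoding entries Gm50020 (1.13 ± 0.12), A930037H05Rik (1.07 ± 0.18) and Gm37376 (1.06 ± 0.15), the growth factor gene Pdgfc (1.03 ± 0.16) and Zfp280c (1.03 ± 0.15). Over all 39 higher DEGs the median log2 fold change was 1.11, and 1 gene lay above 2. A test against a log2 fold change of 1 (edgeR's glmTreat) called 0 genes and gave 53 an unadjusted p under 0.05, where DESeq2 called 239 and an adjusted p alone 5379 (52.1%). With the GC and length trends removed the falls of Zmiz2 and Ftl1 (-0.83 and -0.93) and the rises of Zfp280c, Gm37376 and A930037H05Rik (0.59, 0.81 and 0.90) were short of the limit. Of the 5 greatest rises only Gm50020 held in every fit without a library, and without RNY1+/+ EVFx replicate 4 the other 4 lay between 0.87 and 0.92. With the GC and length trends removed 91 genes were called, 46 higher and 45 lower, of which 45 were among the 225 main DEGs that could be tested, and without RNY1+/+ EVFx replicate 4 the count was 99.

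**Figure D3:**
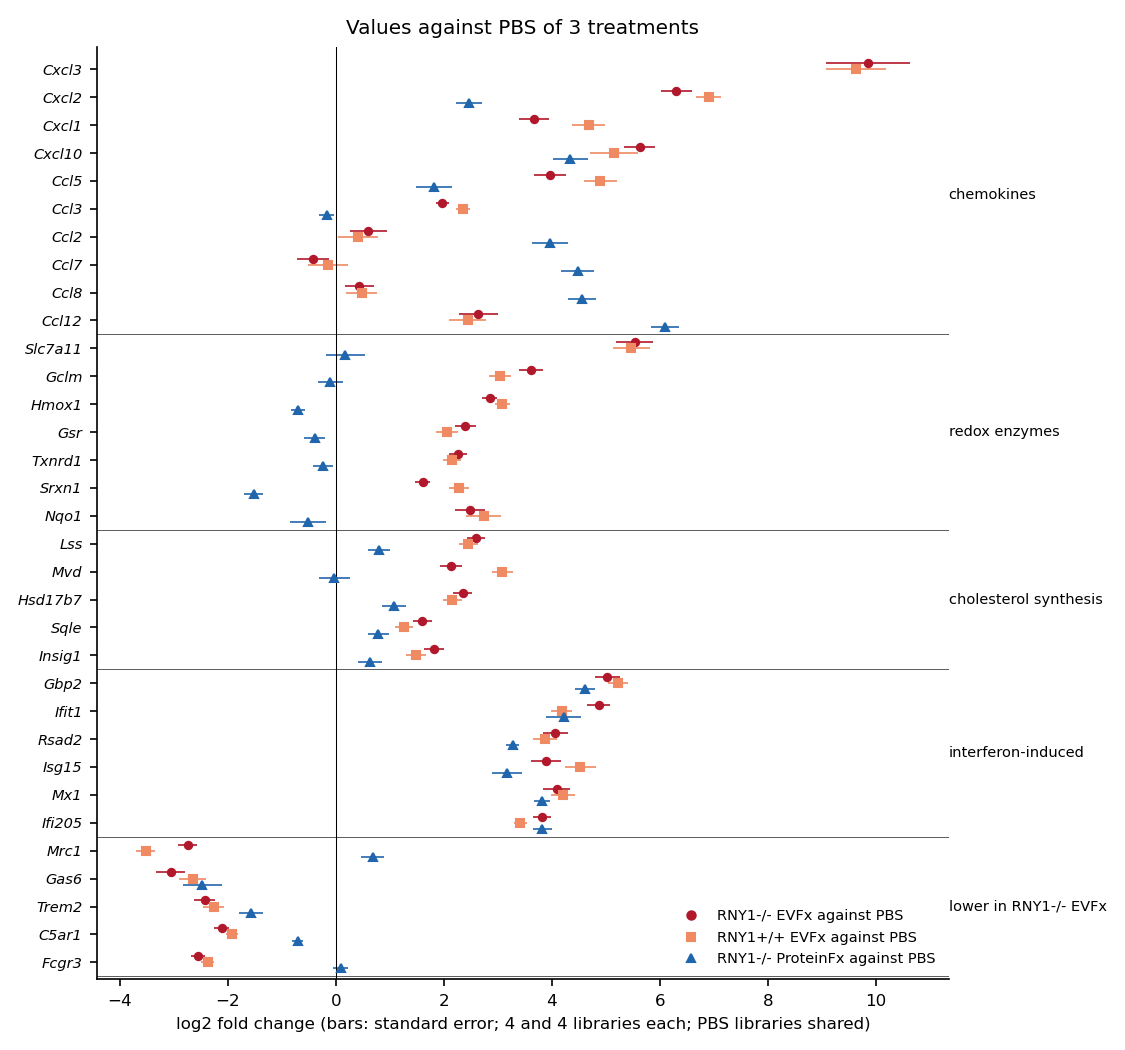
Log2 fold change against PBS (points, with bars of 1 SE) of 33 genes in RNY1-/- EVFx, RNY1+/+ EVFx and RNY1-/- ProteinFx, with the same 4 PBS libraries as the control of each and no point where a gene was not tested. The EV groups lie close together in most genes. The redox genes and Ccl2, Ccl7, Ccl8 and Ccl12 separate RNY1-/- EVFx from RNY1-/- ProteinFx, and the protein fraction of RNY1+/+ fluid is not shown.

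The comparison with RNY1-/- ProteinFx sets the EV fraction of RNY1-/- fluid against its protein fraction, which were dosed in different units, so that amounts cannot be matched. Of 10421 genes, 935 were DEGs (8.97%), with 433 higher in EVFx (4.16%) and 502 lower (4.82%), and with library totals in place of TMM 322 were higher and 710 lower. The RNY1-/- ProteinFx libraries held 2510005 to 7149366 counts, replicate 3 the fewest, and had a biological coefficient of variation of 17.6%. Euclidean distances over log2 CPM were 25.9 between its replicates 1 and 2, 38.9 between 3 and 4, and 49.2 to 60.6 otherwise. With counts thinned to the smallest library 888 genes were DEGs. Of 58 interferon-stimulated effectors 0 were higher and 1 was lower by edgeR (6 and 11 by adjusted p alone), with Ifit1 at 0.65 ± 0.28. Of 18 GBPs and GTPases 1 was higher and 4 were lower (22.2%), with a median log2 fold change of -0.43. Gbp5 was the higher one (1.12 ± 0.19), Gbp8, Gbp9, Gbp11 and Iigp1 were lower (-1.86 ± 0.18, -1.03 ± 0.16, -2.10 ± 0.24 and -1.29 ± 0.22), and Gbp2 stood at 0.42 ± 0.18. Without RNY1-/- EVFx replicate 3 or 4 Gbp9 was short of the limit (-0.92 and -0.98). With library totals in place of TMM none of the 18 was higher and 4 were lower. Against PBS, 56 of these 58 effectors rose after RNY1-/- ProteinFx and 51 of 58 after RNY1-/- EVFx, with the same PBS libraries in both counts and rises in 6.31% and 9.01% of all genes tested.

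Redox genes were higher after the EV fraction. Of 22 tested members of the itaconate, nitric oxide, prostaglandin and redox list, 14 were higher and 4 lower than after RNY1-/- ProteinFx. Slc7a11 was at 162, 137, 249.8 and 244 CPM after RNY1-/- EVFx and 4.58, 4.62, 7.57 and 5.97 CPM after RNY1-/- ProteinFx (5.39 ± 0.27, adjusted p = 3.8e-08). Hmox1 was at 6713, 6530.0, 7270.2 and 7815 CPM after RNY1-/- EVFx and 721, 737, 673 and 614 CPM after RNY1-/- ProteinFx (3.55 ± 0.12, adjusted p = 5.5e-09). The protein fraction libraries of Hmox1 lay below even the PBS libraries. Gclm, Txnrd1, Gsr, Nqo1 and Srxn1 differed by 3.72 ± 0.20, 2.505 ± 0.16, 2.79 ± 0.14, 3.02 ± 0.30 and 3.12 ± 0.15. Side by side against the shared PBS libraries, Srxn1 stood at 1.61 after RNY1-/- EVFx and -1.52 after RNY1-/- ProteinFx, and Gclm at 3.61 and -0.10. Gsta3, a glutathione transferase, showed the greatest rise over the protein fraction among well-expressed DEGs (5.79 ± 0.33), followed by Cxcl3 (5.45 ± 0.56), Slc7a11, the cell cycle inhibitor Cdkn2b (5.01 ± 0.34) and Spic (4.88 ± 0.16), a factor of heme-handling macrophages. Arg1, by contrast, was at 0.263, 0, 0.985 and 0 CPM after RNY1-/- EVFx and 242, 193, 165 and 151 CPM after RNY1-/- ProteinFx (-9.27 ± 0.36, a fit against counts of at most 4 per library), and Ptgs1 was lower after the EV fraction as well (-4.39 ± 0.37).

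Chemokines differed between the fractions in both directions. Of 17 tested, 6 were higher and 7 lower after RNY1-/- EVFx than after RNY1-/- ProteinFx. Cxcl2 was at 238, 227, 444 and 394 CPM after RNY1-/- EVFx and 21.2, 18.9, 34.3 and 29.6 CPM after RNY1-/- ProteinFx (3.86 ± 0.28), and Ccl3 and Ccl5 were higher too (2.14 ± 0.10 and 2.15 ± 0.25). Ccl2 was at 158, 155, 51.5 and 101 CPM after RNY1-/- EVFx and 949, 1043, 1876 and 1493 CPM after RNY1-/- ProteinFx (-3.36 ± 0.34, adjusted p = 1.1e-05). Ccl7, Ccl8 and Ccl12, which are close relatives of Ccl2, were lower too, with log2 fold changes of -4.90 ± 0.29, -4.12 ± 0.25 and -3.45 ± 0.30. No library of the EV fraction reached the range of the protein fraction in any of these 4 genes, a separation downward that 22.8% of the genes tested showed. The cytokines Tnf (2.95 ± 0.15) and Il12b (5.95 ± 0.50) were higher after the EV fraction, as were 13 of 29 genes of the NF-kB list with none lower.

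Alternative activation and homeostatic genes were lower after the EV fraction, with 10 of 16 and 16 of 35 tested genes lower and 0 and 1 higher. Mrc1 was at 106, 88.5, 92.9 and 69.8 CPM after RNY1-/- EVFx and 847, 850.1, 1202 and 1362 CPM after RNY1-/- ProteinFx (-3.42 ± 0.20). Flt1, a receptor of vascular endothelial growth factor, differed by -5.49 ± 0.39 and Gatm, the first enzyme of creatine synthesis, by -5.34 ± 0.25. Flt1 was at or near the floor of detection in the EV libraries, with at most 4 counts in each. Cholesterol genes were higher after the EV fraction in 10 of 25 tested cases with none lower.

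**Figure D4:**
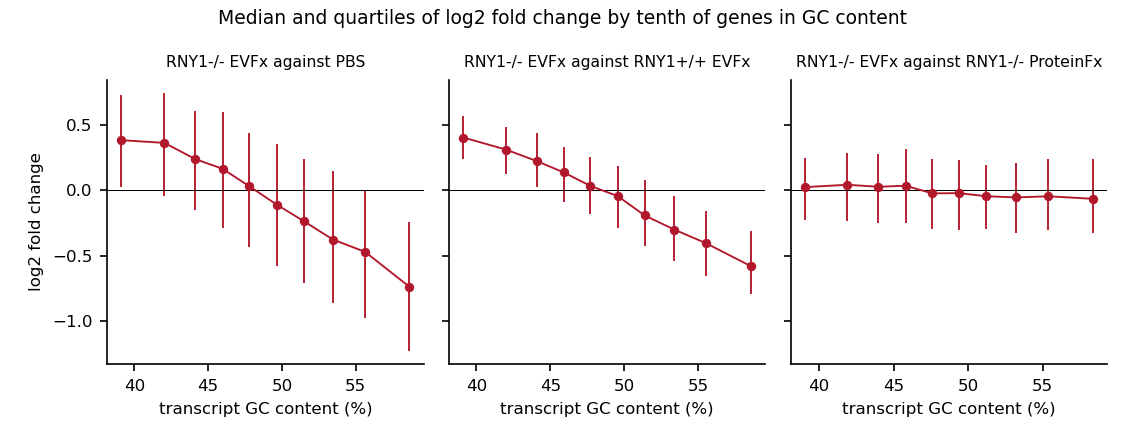
Median log2 fold change (points joined by a line, with vertical bars from the lower to the upper quartile) over 10 equal bins of the tested genes ordered by the GC content of their transcripts, for RNY1-/- EVFx against PBS, RNY1+/+ EVFx and RNY1-/- ProteinFx. The median fell from 0.38 in the first bin to -0.74 in the last against PBS and from 0.40 to -0.58 against RNY1+/+ EVFx, and stayed between 0.02 and -0.07 at these ends against RNY1-/- ProteinFx.

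Transcripts rich in GC had lower log2 fold changes in the comparisons with PBS and with RNY1+/+ EVFx. Spearman's rho across genes, which are not independent replicates, was -0.42 against PBS, -0.65 against RNY1+/+ EVFx and -0.06 against RNY1-/- ProteinFx. Genes that rose against PBS had a median GC content of 45.9% and those that fell one of 53.6%, where that of all genes with a value was 48.7%. The count-weighted GC content of the libraries was 45.9% to 46.3% in RNY1-/- EVFx and 46.1% to 47.7% in PBS. It was 46.9% to 47.4% in RNY1+/+ EVFx, above every RNY1-/- EVFx library, and 45.7% to 46.7% in RNY1-/- ProteinFx. For the other treatments against PBS, Spearman's rho was -0.09 for RNY1+/+ EVFx and -0.50 for RNY1-/- ProteinFx. The part of GC content in single changes was not tested. With the trends of GC content and length removed, 1883 genes were DEGs against PBS, 873 higher and 1010 lower, and 1577 of the 2320 main DEGs with a GC value were called in the same direction. In that fit 53 of 58 interferon-stimulated effectors, 17 of 17 GBPs and GTPases, 21 of 29 NF-kB genes and 13 of 25 cholesterol genes rose, and 17 of 28 genes of DNA replication and mitosis and 11 of 36 homeostatic genes fell.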

How the data were processed

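RNA of mouse bone marrow-derived macrophages was sequenced from the poly(A) end with molecular identifiers, in 5 groups of 4 libraries. The authors trimmed reads with fastp 0.24.0, aligned them to GRCm39 with STAR 2.7.11, removed duplicate molecules and counted exons and 3′ untranslated regions by strand with featureCounts (Subread 2.1.1), giving fractions to reads with several positions. The submitters' processing notes also name FastQC 0.12.1, MultiQC 1.32, SAMtools 1.22.1 and edgeR 4.0.16, and the annotation release is not given in the sources used here. The deposited table holds expected counts and CPM, which the authors computed by dividing by the library total. Entries without a symbol held 0.659% to 0.841% of the counts in PBS and RNY1-/- EVFx and 0.602% to 0.693% in RNY1+/+ EVFx and RNY1-/- ProteinFx.

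Expected counts were rounded and tested with edgeR 4.0.16 (R 4.3.3) by the quasi-likelihood test with TMM scaling, on genes that passed filterByExpr and a mean of 3 CPM over the 8 libraries of a comparison, with Benjamini-Hochberg adjustment over all genes tested. The standard error was taken as the log2 fold change, without its sign, divided by the root of F. The members, gene lists and promoter letters were chosen with earlier results of these data known, so list counts are descriptions and were not tested as sets. Named genes are list members, the 12 greatest rises and 12 greatest falls against PBS (5 and 5 against the other groups) taken from DEGs whose groups did not overlap and whose mean reached 10 CPM, the 10 most abundant genes, Rny1 and Rny3. A few genes outside these rules were named after their values were seen, and some list members are counted but not reported by name here. Folds against genes with at most 3 counts in every PBS library are bounds against 3 counts per library, and they cover counting error only. Single values were compared by exact permutation in SciPy 1.17.1.

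Deviations of same-numbered libraries correlated at r = 0.14, 0.38, 0.24 and 0.13 for replicates 1 to 4 in RNY1-/- EVFx and PBS. In RNY1-/- EVFx and RNY1-/- ProteinFx r was 0.22, 0.40, 0.29 and 0.27, and in the EV groups 0.12, 0.05, 0.29 and -0.13. Each RNY1-/- EVFx library correlated best with its own number only in RNY1-/- ProteinFx. In PBS, RNY1-/- EVFx replicate 1 correlated best with replicate 4 (0.18) and RNY1-/- EVFx replicate 4 with replicate 3 (0.28). Any pairing comes from the data and not from the labels. Alternatives were DESeq2 1.42.0, other scalings, filters and thresholds, all 20 libraries in the fit, thinned counts, a replicate block, removal of GC and length trends with splines, and leaving out each library in turn. On counts simulated for the comparison with PBS over 10561 genes, edgeR recovered 200 of 200 changed genes with 1 false DEG. Recovery of changes near the limit of 1, under a GC trend or with a library as distant as PBS replicate 3, was not tested.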

Additional observations from a re-analysis of the deposited data

Results flagged for a closer look

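In 15 of 318 groups of 4 libraries checked, 1 library lay far from the others by Dixon's limit, where chance gives about 1 group in 20. PBS replicate 3 was that library in 6 of them. It was at 14.4 CPM in Ccna2 (others 7.17 to 8.19), 98.5 CPM in Cd300a (170.5 to 182), 39.2 CPM in Gm37376 (12.04 to 13.8), 0.457 CPM in Il12b (others at 0), 18.2 CPM in Klf4 (9.49 to 10.97) and 968 CPM in Mrc1 (592 to 649). Among the other PBS libraries, replicate 1 was low in Cxcl10 (2.66 against 5.52 to 5.95 CPM) and Lss (6.56 against 10.98 to 11.1 CPM), replicate 2 high in Stat2 (65.7 against 52.1 to 53.7 CPM) and replicate 4 low in Ctsc (214 against 239.9 to 243 CPM). In RNY1-/- EVFx, replicate 3 was high in Gm37376 (39.2 against 29.1 to 30.3 CPM) and low in H2-Q7 (48.9 against 62.5 to 65.3 CPM), replicate 2 high in Relb (27.1 against 22.4 to 22.9 CPM), replicate 1 low in Slc2a1 (49.9 against 58.5 to 59.3 CPM) and replicate 4 high in Traf1 (43.1 against 40.4 to 40.6 CPM).

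Some genes differed from PBS after RNY1-/- EVFx and also differed between the EV groups by edgeR's test. Against RNY1+/+ EVFx, the log2 fold changes of lower genes were -1.02 for Cxcl1, -1.07 for Socs3, -1.07 for Bcl2l1, -1.08 for Rela, -1.10 for Tarm1, -1.18 for Gapdh, -1.21 for Il1b, -1.22 for Tnf and -1.30 for Tgfb1. Gapdh and Bcl2l1 stood at -0.94 and -0.66 with the GC and length trends removed, and Bcl2l1 at -0.95 with thinned counts, all short of the limit. The entries of the ferritin light chain were at -1.40 (Ftl1), -1.79 (Ftl1-ps1), -1.67 (Gm15590) and -1.31 (Gm56125), with reads shared among them. Against PBS the call of Ftl1 was short of the limit with GC and length trends removed (-0.57), and that of Gm56125 without PBS replicate 1 (-0.99) or PBS replicate 2 (-0.93). Higher genes were A930037H05Rik (1.07), Gm50020 (1.13) and Pdgfc (1.03).

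Opposite directions against PBS in the fractions of RNY1-/- fluid, with a difference between the fractions that passed edgeR's test, were found in Gatm (-5.34, RNY1-/- EVFx against RNY1-/- ProteinFx), Pdgfc (-2.88) and Srxn1 (3.12).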

How the results depend on the processing

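The number of DEGs against PBS was 3798 without a filter on low counts, 6258 by adjusted p alone and 1131 by glmTreat, and 2151 to 2905 when each library was left out. It lay between 1678 and 2836 in every other setting. Against RNY1+/+ EVFx the number was 367 with filterByExpr only, 631 without a filter, 103 at a limit of 10 CPM, 5379 by adjusted p alone, 0 by glmTreat (53 at an unadjusted p under 0.05, and 239 DEGs by DESeq2), 91 with the GC and length trends removed, and 99 to 343 when each library was left out. Without RNY1+/+ EVFx replicate 4, the setting with 99, 96 of the 222 DEGs that could be tested remained. Against RNY1-/- ProteinFx the number was 1539 without a filter, 3043 by adjusted p alone and 408 by glmTreat, and 897 to 998 when each library was left out. The filters and thresholds move the counts by construction, and the cause of the other shifts was not tested.

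With the replicate block 2443 genes were DEGs against PBS, 225 against RNY1+/+ EVFx and 934 against RNY1-/- ProteinFx. The block raised Gm37376 past the limit against PBS (1.099), took Il1a below it against RNY1-/- ProteinFx (0.997) and changed no other call of a named gene in these comparisons. Not every library correlated best with its own number between the EV groups or against PBS. Between the EV groups, Cxcl1 and Cd74 stood at -0.988 and -0.995 with the block, short of the limit. Chosen after seeing the data, the block with GC and length trends removed gave 1899 DEGs against PBS and 894 against RNY1-/- ProteinFx, and removal of the trends without PBS replicate 3 gave 2136 against PBS.

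Of the 141 named genes called against PBS 5 fell short of the limits in a setting other than glmTreat, where 15 did. Of the 22 called between the EV groups 16 did, and 22 under glmTreat, and of the 85 called against RNY1-/- ProteinFx 8 and 18 did. No named call changed direction in any of the settings run. Of 2394 list counts 2139 stayed within 1.5-fold.

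The mitochondrial share of counts in protein-coding genes alone differed by -0.771 percentage points after RNY1-/- EVFx (1.41% against 2.19%, exact two-sided permutation test, p = 0.0286, the smallest possible), and the difference over all counts ranged from -1.01 to -0.434 percentage points when each library was left out, where p cannot go below 0.0571. The difference in total counts then ranged from 236545 to 1421210. Genes at 3 counts or fewer in every library, such as Ifnb1, were below the limit of 3 CPM and were not tested. At this depth the size of a change in them cannot be given.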

Other observations

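Several groups of genes outside the immune response also moved in the macrophages given RNY1-/- EVFx. Of 35 tested lysosomal genes 9 fell and 2 rose against PBS, with a median log2 fold change of -0.57. Ctsd, the aspartic protease cathepsin D, was at 5825, 5878, 2090.2 and 3659 CPM in PBS and 1017, 1079.8, 837 and 801 CPM after RNY1-/- EVFx (-1.99 ± 0.28), with PBS replicate 3 the lowest of the PBS libraries. Atp6v0d2, a subunit of the proton pump that acidifies the lysosome, was at 311, 267, 380.0 and 356 CPM in PBS and 73.4, 54.8, 65.5 and 67.3 CPM after RNY1-/- EVFx (-2.09 ± 0.15). Ctsc, the protease that activates serine proteases of immune granules, went the other way, from 241, 239.9, 243 and 214 CPM to 1014, 972, 778 and 989 CPM (2.24 ± 0.12). With the GC and length trends removed, 5 lysosomal genes fell and 3 rose.

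Genes of cell survival and death mostly rose where they changed, with 8 of 22 tested higher and 1 lower. Fas, a death receptor, was at 6.15, 5.56, 5.49 and 4.98 CPM in PBS and 42.03, 38.6, 41.6 and 37.9 CPM after RNY1-/- EVFx (3.09 ± 0.13). Bcl2a1a, a survival gene of the BCL2 family whose copies share reads, was at 69.4, 62.4, 56.5 and 65.6 CPM in PBS and 352, 359, 381 and 452 CPM after RNY1-/- EVFx (2.85 ± 0.13). Casp4, the inflammatory caspase that senses lipopolysaccharide inside the cell, rose by 2.71 ± 0.12, and Bcl2l1, the gene of BCL-XL, was the member that fell (-1.73 ± 0.23). Glycolytic genes went both ways, with 3 higher and 3 lower of 20 tested (15% each), near the 9.01% and 13.5% of all genes tested. The glucose transporter Slc2a1 was at 24.4, 25.2, 21.96 and 22.4 CPM in PBS and 49.9, 58.5, 59.1 and 59.3 CPM after RNY1-/- EVFx (1.51 ± 0.11), and the regulatory kinase Pfkfb3 rose by 1.32 ± 0.13. Gapdh was at 101, 102, 31.4 and 51.9 CPM in PBS and 24.4, 28.8, 26.5 and 20.5 CPM after RNY1-/- EVFx (-1.28 ± 0.32), and it shares reads with many pseudogenes. None of the 35 tested genes of ribosome biogenesis rose or fell past the limits by edgeR, although 8 were higher and 6 lower by adjusted p alone.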
